A study of Mus musculus with 12 samples.

Results

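The transcripts described here come from 40 genes of skeletal muscle, listed by symbol: contractile proteins of fast and slow fibres, developmental myosins, regulators of muscle formation and innervation, and structural genes shared by all fibres. All 40 were found among the 54532 genes counted. The filter on low counts kept 15650 genes, 39 of the listed ones among them. Pax7, which marks muscle stem cells, was left out by it, with at most 1.02 CPM, the depth-scaled count used here, in any tumour.

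RNA sequencing was done on 12 mouse malignant peripheral nerve sheath tumours, 4 in each of 3 groups, from mice labelled strain C57B/6 and genotype WT. In all groups the tumours had been made with an adenovirus carrying a Cas9 system against Nf1 and a gene spelled Cdk2na, read here as Cdkn2a, so the vehicle tumours carry the same targeting. Vehicle tumours were harvested at the time labelled Terminal. Regressing tumours were taken During Regression from mice on daily gavage with the CDK4/6 inhibitor palbociclib (100 mg/kg) and the MEK inhibitor mirdametinib (1 mg/kg). Terminal combination tumours had the same drugs and were harvested at the Terminal time. No ages are given, the series names combination-sensitive and combination-resistant tumours without saying which treated group is which, and harvest time and tumour state cannot be told apart in the regressing group.

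Libraries held 13194699 to 22639625 counted reads, and a count of 0 allowed up to 0.128 to 0.231 CPM, for counting error only. Titles of vehicle tumours 1 and 2, regressing tumour 1 and terminal combination tumour 1 end in FFT, which is not explained. Whether each tumour is from another mouse is not stated in the labels, so p-values reflect only the scatter among these 12 samples. Among Schwann cell markers, Sox10 reached at most 2.10 CPM in any tumour, Erbb3 at most 37.0 and Mbp at most 38.6 CPM. The 8 markers summed to 10.2 to 57.5 CPM. In bulk RNA, fewer muscle fibres and less muscle RNA per fibre cannot be told apart.

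Skeletal muscle fibres are built from sarcomeres, in which myosin heavy chains pull on actin under the control of troponin and tropomyosin. Fast and slow fibres use different isoforms of the same parts, and embryonic and perinatal fibres, like fibres regenerating after injury, use myosins that adult fibres have largely switched off. The factors MyoD and myogenin drive this programme by binding E-boxes, and the acetylcholine receptor, held under the nerve ending in adult fibres, is made along the whole fibre before innervation and after denervation.

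The 250 bases before the start of 4 of these genes are shown because their levels set the tumours apart in what follows: the myogenic factor Myog (chr1:134289754-134290003, plus strand), the receptor subunit Chrna1 (chr2:73580339-73580588, minus strand), the embryonic myosin Myh3 (chr11:67078050-67078299, plus strand) and the adult fast myosin Myh4 (chr11:67237562-67237811, plus strand). They are RefSeq sequences of GRCm38.p6, read 5′ to 3′ along the gene, and capitals mark every match to the E-box CANNTG.
Myog: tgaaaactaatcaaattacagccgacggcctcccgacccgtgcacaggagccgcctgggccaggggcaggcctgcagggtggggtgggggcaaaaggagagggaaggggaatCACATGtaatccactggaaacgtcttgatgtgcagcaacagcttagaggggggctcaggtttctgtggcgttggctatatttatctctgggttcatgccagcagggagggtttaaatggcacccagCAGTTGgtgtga
Chrna1: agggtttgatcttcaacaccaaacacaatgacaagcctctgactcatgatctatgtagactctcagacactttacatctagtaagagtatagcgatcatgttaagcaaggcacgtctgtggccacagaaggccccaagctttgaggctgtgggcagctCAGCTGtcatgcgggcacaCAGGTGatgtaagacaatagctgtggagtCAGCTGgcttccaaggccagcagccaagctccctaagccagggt
Myh3: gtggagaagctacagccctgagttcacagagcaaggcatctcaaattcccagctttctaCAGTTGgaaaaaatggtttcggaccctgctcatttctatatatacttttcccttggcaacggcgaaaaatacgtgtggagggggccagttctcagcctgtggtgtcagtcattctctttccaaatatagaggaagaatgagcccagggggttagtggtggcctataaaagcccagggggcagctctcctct
Myh4: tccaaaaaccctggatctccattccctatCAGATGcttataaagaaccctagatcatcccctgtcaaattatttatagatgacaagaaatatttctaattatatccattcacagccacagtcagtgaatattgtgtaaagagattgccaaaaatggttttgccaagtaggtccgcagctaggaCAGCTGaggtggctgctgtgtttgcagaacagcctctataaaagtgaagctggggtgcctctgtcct

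CANNTG reads the same on both strands. It was found 2 times before Myog, 3 times before Chrna1, 1 time before Myh3 and 2 times before Myh4. Its form CAGCTG, counted within CANNTG as well, made up 2 of the matches of Chrna1 and 1 of those of Myh4. RefSeq windows matched 33 of the 40 genes, with 41 windows in all. CANNTG was present in 85.4% of these and in 66.2% of all 32851 windows of this length, and CAGCTG in 39.0% against 13.0%. The MEF2 motif, bound by the muscle and heart factors of that name, was in 14.6% against 2.92%, and Myh4 held 1 match. TATAAA, searched on both strands, was in 22% against 12.4%, with 3 matches before Myh4 and 1 before Myh3.

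Muscle transcripts were present in all 12 tumours, in amounts that differed widely within each group. The listed genes took 1.99%, 0.294%, 0.720% and 0.753% of reads in vehicle tumours 1 to 4. They took 6.76%, 0.791%, 1.73% and 4.88% in regressing tumours 1 to 4, and 0.571%, 4.40%, 1.79% and 2.27% in terminal combination tumours 1 to 4. The 95% Wilson intervals of these shares reach at most 0.0118 percentage points to either side, for counting error only. The groups overlapped, with vehicle tumour 2 lowest and regressing tumours 1 and 4 highest. Some listed genes are also made outside muscle, so these shares are not amounts of muscle alone. In vehicle tumour 2, Tpm1 (17355 counts), Tpm3 (6523), Atp2a2 (3872) and Tpm2 (3356) held most of the 41711 counts.

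**Figure D1:**
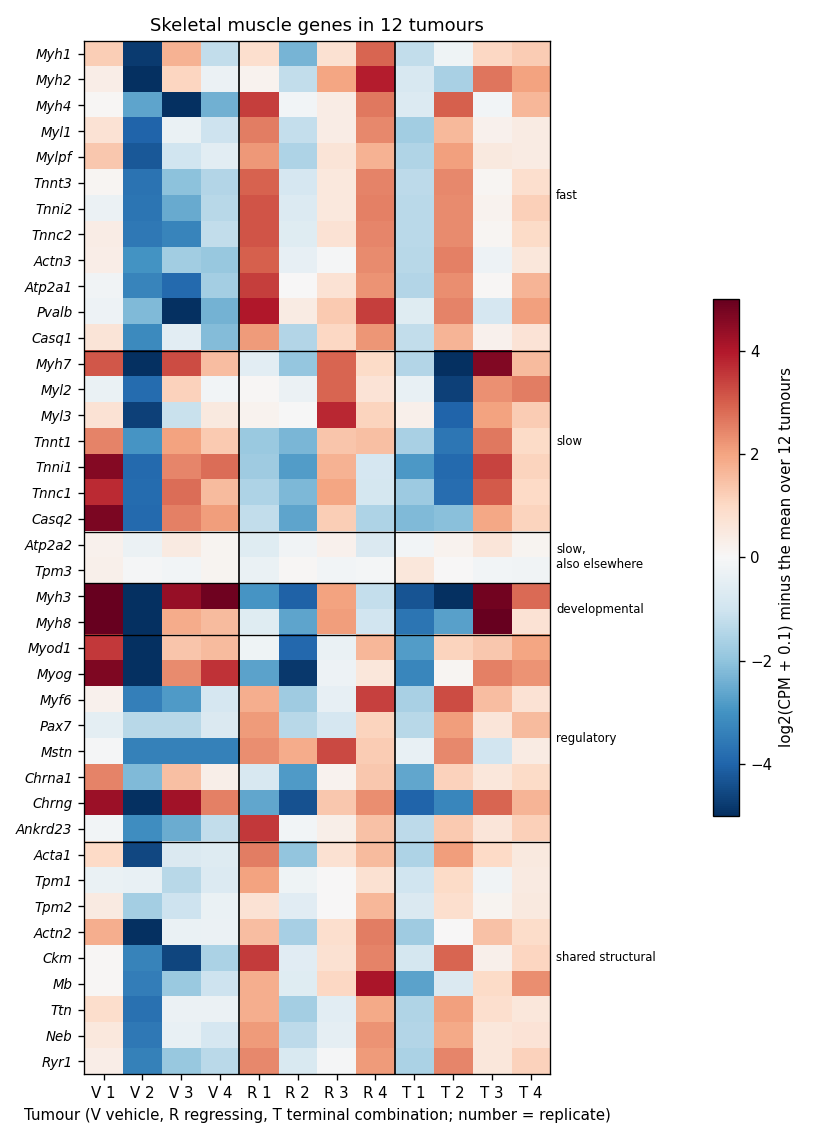
Level of the 40 muscle genes (rows, by class) in 12 tumours (columns; V vehicle, R regressing, T terminal combination), as log2(CPM + 0.1) minus the gene's mean over the tumours, with colours saturating beyond 5 units. Most fast and structural genes are highest in R 1, R 4 and T 2, while the developmental myosins Myh3 and Myh8 and several slow genes are high in V 1 and T 3, and V 2 is the lowest tumour for 27 of the 40.

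Fast-fibre genes were higher on average in regressing than in vehicle tumours, all 12 of them, with a median log2 difference of 3.02, but none passed the edgeR test after adjustment. Ckm, the muscle creatine kinase and a marker of adult fibres of any type (ENSMUSG00000030399, GRCm38 chromosome 7, 19404776 to 19422841), stood at 635, 59.5, 25.0 and 204.6 CPM in vehicle tumours 1 to 4. Regressing tumours had 6825, 411, 1044 and 3369 CPM and terminal combination tumours 329.8, 4550, 729.6 and 1272 CPM. Regressing tumours 1 and 4 and terminal combination tumour 2 were highest, and vehicle tumour 1 lay above regressing tumour 2, so the groups overlapped.

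The same 3 tumours were the highest 3 for 19 of the 40 genes, among them 10 of 12 fast, 7 of 9 structural and 0 of the 7 slow genes. They also had the highest mitochondrial shares of reads, 1.95% and 2.14% in regressing tumours 1 and 4 and 1.49% in terminal combination tumour 2, against 0.562% to 1.23% in the other tumours. The part of the mitochondrial share in these differences was not tested.

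Myh4, the myosin heavy chain of the fastest fibres (ENSMUSG00000057003, chromosome 11, 67238029 to 67260446), gave 961.6, 151, 27.3 and 176 CPM in vehicle tumours. Its levels were 10200, 840.5, 1199 and 5729 CPM in regressing tumours and 575.8, 7346, 844 and 2917 CPM in terminal combination tumours. Vehicle tumour 1 again exceeded the lowest regressing tumour. The log2 difference of regressing from vehicle tumours was 3.77 (SE 1.23, edgeR quasi-likelihood test with Benjamini-Hochberg adjusted p = 0.277).

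Tnni2, the fast troponin I that holds the filament off at low calcium (ENSMUSG00000031097, chromosome 7, 142441808 to 142444410), stood at 229, 22.5, 49.4 and 108 CPM in vehicle tumours. It stood at 2469, 174.5, 402 and 1612 CPM in regressing and at 110.2, 1449, 320 and 636.5 CPM in terminal combination tumours. Only vehicle tumour 1 reached the range of the regressing group. The difference was 3.51 (SE 1.04, edgeR adjusted p = 0.254).

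Tnnt3, the fast troponin T that anchors the complex to tropomyosin, had 572, 41.2, 129.8 and 194 CPM in vehicle, 4077, 295, 766 and 2963 CPM in regressing and 214, 2811, 568 and 941 CPM in terminal combination tumours. Vehicle tumours 2 to 4 were the lowest of all 12. The log2 difference between regressing and vehicle was 3.11 (SE 1.04, edgeR adjusted p = 0.278).

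Atp2a1, the calcium pump of the fast sarcoplasmic reticulum, had 1176, 132, 87.6 and 409 CPM in vehicle and 14450, 1336, 2142 and 6173 CPM in regressing tumours. In terminal combination tumours it had 478, 6598, 1385 and 4235 CPM. Every regressing tumour exceeded every vehicle tumour, by a narrow gap of 1336 to 1176 CPM. Its difference was 3.74 (SE 1.10, edgeR adjusted p = 0.254).

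Pvalb encodes parvalbumin, a calcium buffer that speeds the relaxation of fast fibres. It showed 110.1, 28.02, 0.661 and 24.9 CPM in vehicle, 2088, 171, 319 and 1443 CPM in regressing and 84.1, 723, 72.5 and 532 CPM in terminal combination tumours. Vehicle and regressing tumours did not overlap, and vehicle tumour 3 was far below the other vehicle tumours. The difference was 4.62 (SE 1.36, edgeR adjusted p = 0.254).

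The other fast myosins did not follow this order. Myh1, the heavy chain of intermediate fast fibres, had 665, 10.1, 935 and 121.5 CPM in vehicle, 512, 56.2, 483 and 2116 CPM in regressing and 119, 244, 579 and 685.5 CPM in terminal combination tumours. Myh2, the heavy chain of oxidative fast fibres, had 37.0, 0, 60.9 and 23.5 CPM in vehicle, 32.4, 12.2, 113 and 441 CPM in regressing and 16.4, 9.35, 186 and 117 CPM in terminal combination tumours. Regressing tumour 4 was highest for both, and the groups overlapped. Their differences were 0.87 (SE 1.16) and 2.30 (SE 1.42), and that of Myh1 was -0.3 without regressing tumour 4. Myh1, Myh2, Myh3, Myh4 and Myh8 all lie between 67078300 and 67308634 on chromosome 11, and 25.4%, 22.9% and 18.9% of the 50-base stretches of Myh1, Myh2 and Myh4 also occur in other genes' transcripts, so reads may have been split between them.

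The remaining fast genes were Myl1 and Mylpf, light chains of fast myosin, Tnnc2, the fast troponin C, Actn3, the alpha-actinin of fast Z discs, and Casq1, the calcium store protein of fast fibres. Their log2 differences of regressing from vehicle tumours were 2.12, 1.37, 3.12, 2.94 and 2.15, and vehicle and regressing tumours overlapped in each.

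Slow-fibre genes had another order across tumours. Tnni1, the slow troponin I and also the form of immature fibres (ENSMUSG00000026418, chromosome 1, 135779434 to 135810989), stood at 543, 1.43, 124 and 157 CPM in vehicle tumours. It stood at 6.56, 3.19, 76.6 and 12.5 CPM in regressing and at 3.02, 1.43, 235 and 48.7 CPM in terminal combination tumours. Vehicle tumours 1, 3 and 4 and terminal combination tumour 3 were high, and vehicle tumour 2 lay as low as any treated tumour. The difference was -3.06 (SE 1.69, edgeR adjusted p = 0.472).

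Tnnt1, the slow troponin T, had 104, 2.36, 76.0 and 46.3 CPM in vehicle, 5.10, 3.77, 49.3 and 52.6 CPM in regressing and 6.04, 1.43, 117 and 36.5 CPM in terminal combination tumours. Myh7, the slow myosin that the heart also uses, had 110.9, 0, 125 and 37.9 CPM in vehicle, 8.98, 3.31, 97.2 and 25.2 CPM in regressing and 4.61, 0, 323 and 39.3 CPM in terminal combination tumours. All 3 groups overlapped for both genes, with log2 differences between regressing and vehicle of -1.05 (SE 1.29) for Tnnt1 and -1.02 (SE 1.77) for Myh7.

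Of the 7 slow genes, 5 were lower on average in regressing than in vehicle tumours and 2 were higher, with a median log2 difference of -1.05. Tnnc1, the slow and cardiac troponin C, was at -2.22 and Casq2, the slow and cardiac calcium store protein, at -3.46. The 2 higher genes were the slow myosin light chains Myl2 (1.48) and Myl3 (2.39), at no more than 42.3 and 34.6 CPM in any tumour. Of 8 cardiac markers, Myh6, Nppa, Myl7, Tnni3 and Ryr2 had at most 0.926 CPM in any tumour. The other 3, Myl4, Actc1 and Tnnt2, which developing skeletal muscle also uses, reached 763, 646 and 209 CPM, all in vehicle tumour 1.

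Atp2a2, the slow calcium pump, and Tpm3, the slow tropomyosin, are made in most tissues and varied little. Atp2a2 had 395, 277, 462 and 371 CPM in vehicle, 219.6, 294, 386 and 201 CPM in regressing and 308, 377, 509 and 373 CPM in terminal combination tumours. Its difference was -0.45 (SE 0.24, edgeR adjusted p = 0.458), and that of Tpm3 was -0.17.

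**Figure D2:**
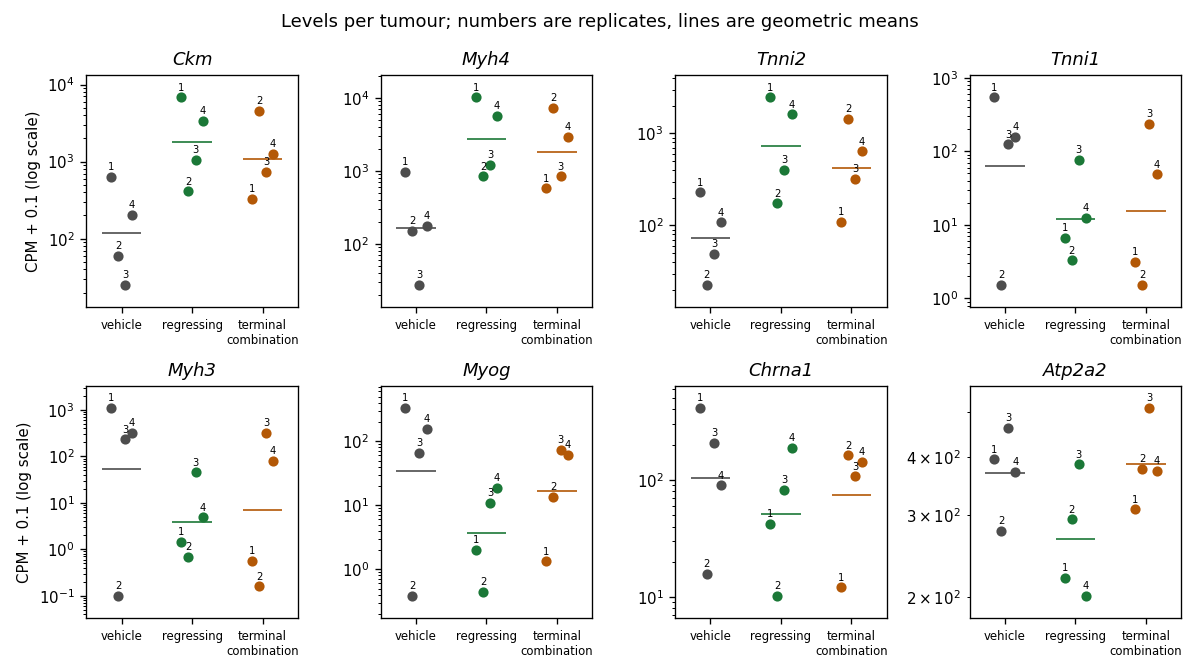
CPM + 0.1 on a log axis in each tumour for 8 genes, with replicate numbers beside the points and lines at geometric means. Ckm, Myh4 and Tnni2 have their lowest values in vehicle tumours, Tnni1, Myh3 and Myog are highest in vehicle tumour 1 with vehicle tumour 2 at the bottom, and Atp2a2 spans a narrow range.

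The balance of fibre types was expressed for each tumour as the ratio of 12 fast to 7 slow genes, each summed as CPM per kb of exon. Vehicle tumours 1 to 4 had fast sums 5.89, 77.5, 3.39 and 6.78 times the slow sums. Regressing tumours 1 to 4 had 1203, 156, 22.4 and 274.5 times, and terminal combination tumours 1 to 4 had 74.6, 3602, 8.26 and 54.3 times. Vehicle tumours 1, 3 and 4 were the lowest of all 12, followed by terminal combination tumour 3. Vehicle tumour 2 lay within the treated range on a slow sum of only 2.89 CPM per kb, beside the smallest fast sum of all tumours, 224.5 CPM per kb.

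On the log2 scale the ratio was 3.34 ± 2.01 (SD, n = 4) in vehicle, 7.525 ± 2.38 in regressing and 6.71 ± 3.68 in terminal combination tumours. Groups overlapped, since regressing tumour 3 (4.49) was below vehicle tumour 2 (6.28), and no test was run on a ratio over chosen genes. When Atp2a2 and Tpm3 were counted as slow, vehicle tumours had 2.19, 0.84, 1.03 and 1.71, regressing tumours 7.43, 3.5, 3.61 and 6.38 and terminal combination tumours 2.39, 6.33, 2.47 and 4.50. On that measure no vehicle tumour reached any treated tumour, but both added genes are also made outside muscle.

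Isoform pairs of the same protein were compared as well. Per kb, Tnni2 was 1.013, 37.9, 0.955 and 1.66 times Tnni1 in vehicle tumours, 904.8, 131, 12.6 and 310.1 times in regressing and 87.8, 2437, 3.27 and 31.4 times in terminal combination tumours. In that pair vehicle tumours 1, 3 and 4 had the lowest ratios, followed by terminal combination tumour 3. Casq1 was below Casq2 in these 3 tumours, at 0.421, 0.861 and 0.371 times, and above it in the other 9, at 2.15 to 102 times.

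The other 4 pairs did not keep this order in full. Tnnt3 was 2.38 to 7.67 times Tnnt1 in vehicle tumours 1, 3 and 4, with terminal combination tumour 3 (6.78 times) among them, and Tnnc2 was 0.362 to 3.60 times Tnnc1, again with terminal combination tumour 3 (3.27 times) among them. Actn3 over Actn2 was lowest in terminal combination tumour 3 (2.85 times), below vehicle tumours 1, 3 and 4 (3.05 to 3.52 times). Atp2a1 over Atp2a2 was 5.21, 0.836, 0.332 and 1.93 times in vehicle tumours 1 to 4, and terminal combination tumours 1 (2.71 times) and 3 (4.76 times) lay below vehicle tumour 1. Vehicle tumour 2 was within the treated range for every pair but the last.

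**Figure D3:**
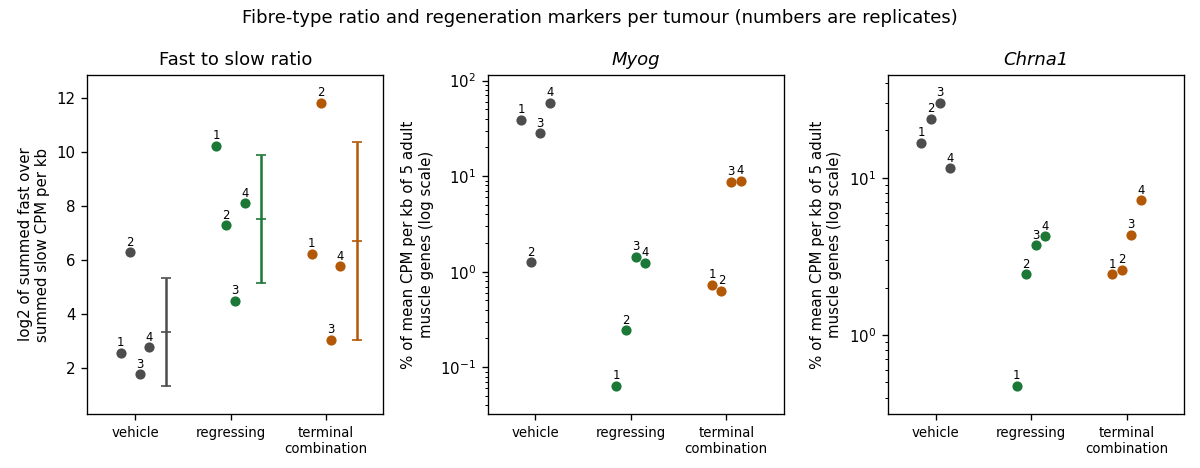
Log2 fast to slow ratio (with mean and SD bars), and Myog and Chrna1 CPM per kb as a percentage of the mean of 5 adult muscle genes (log axes), in each tumour. Vehicle tumours 1, 3 and 4 have the lowest ratios, and the 4 vehicle tumours lie above all 8 treated tumours for Chrna1, at 11.4% to 29.8% against 0.475% to 7.16%. The Chrna1 value of vehicle tumour 2 rests on an adult mean of only 15.2 CPM per kb.

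Developmental myosins differed widely between tumours of the same group. Myh3, the embryonic heavy chain (ENSMUSG00000020908, chromosome 11, 67078300 to 67102291), stood at 1098, 0, 232 and 323 CPM in vehicle tumours. It stood at 1.34, 0.581, 45.6 and 4.78 CPM in regressing and at 0.461, 0.0596, 319 and 80.2 CPM in terminal combination tumours. Its count was 0 in vehicle tumour 2, which allows up to 0.214 CPM, and 25678 in vehicle tumour 1. The groups overlapped at both ends, and the difference between regressing and vehicle was -4.97 (SE 2.37, edgeR adjusted p = 0.41).

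Myh8, the perinatal heavy chain, had 287, 0, 28.3 and 22.9 CPM in vehicle, 5.03, 1.16, 33.1 and 3.86 CPM in regressing and 0.512, 1.07, 323 and 12.6 CPM in terminal combination tumours. Terminal combination tumour 3 and vehicle tumour 1 stood above the rest. Its difference was -2.96 (SE 2.03, edgeR adjusted p = 0.554), but -0.63 without vehicle tumour 1 and -4.67 without regressing tumour 3.

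Together Myh3 and Myh8 made 42.1%, 0%, 18.9% and 49.7% of the 6 sarcomeric myosin heavy chains per kb in vehicle tumours 1 to 4. The share was 0.0364%, 0.129%, 3.30% and 0.0827% in regressing and 0.102%, 0.00800%, 21.3% and 2.28% in terminal combination tumours. Myh4 alone made 32.7%, 94.1%, 2.10% and 26.2% in vehicle, 95.1%, 92.6%, 63.7% and 70.5% in regressing and 81.5%, 96.8%, 37.4% and 77.2% in terminal combination tumours. Vehicle tumour 3 stood apart with 68.3% Myh1.

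**Figure D4:**
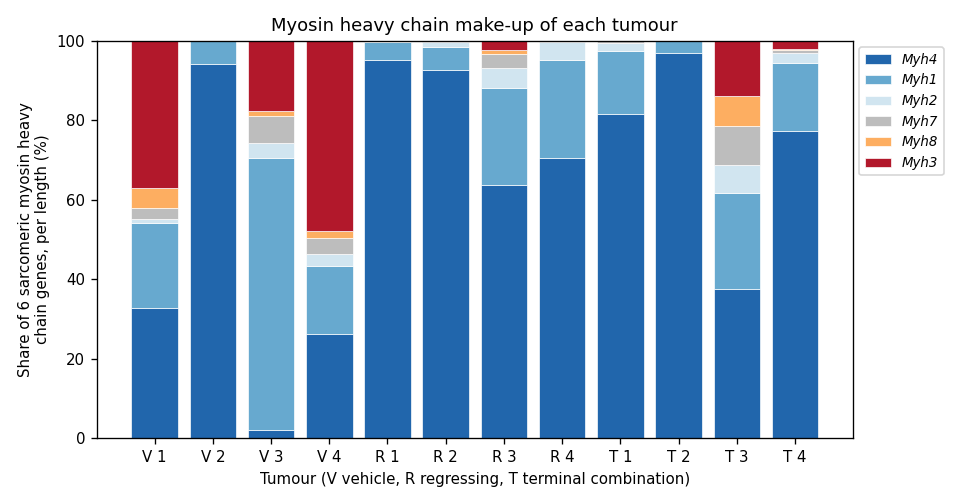
Share of 6 myosin heavy chain genes in their summed CPM per kb (bars add to 100%) in each tumour; V vehicle, R regressing, T terminal combination. Myh4 leads in all R and T tumours, and Myh3 takes 37.1%, 17.8% and 47.9% in V 1, V 3 and V 4 and 14.0% in T 3.

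Of the 7 regulators tested, 4 were lower on average in regressing than in vehicle tumours (Myod1, Myog, Chrna1 and Chrng) and 3 were higher (Myf6, Mstn and Ankrd23), none past the edgeR threshold after adjustment. Myog, the factor that drives myoblasts to differentiate (ENSMUSG00000026459, chromosome 1, 134289989 to 134292548), had 329.5, 0.286, 66.3 and 156 CPM in vehicle tumours. It had 1.91, 0.348, 10.8 and 18.8 CPM in regressing and 1.23, 13.5, 73.3 and 61.3 CPM in terminal combination tumours. Vehicle tumours 1, 3 and 4 were above every regressing tumour, and vehicle tumour 2 was the lowest of all 12. The difference was -4.12 (SE 1.63, edgeR adjusted p = 0.332).

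Myod1, which commits cells to the muscle lineage, had 112, 0.143, 24.8 and 28.6 CPM in vehicle, 8.16, 0.523, 7.45 and 30.3 CPM in regressing and 1.28, 20.6, 24.1 and 37.7 CPM in terminal combination tumours. The groups overlapped, with a difference of -1.84 (SE 1.35, edgeR adjusted p = 0.586), which was -0.6 without vehicle tumour 1 and -2.95 without regressing tumour 4. Pax7 had at most 0.0856 CPM in vehicle, 1.02 in regressing and 1.013 in terminal combination tumours, which is 17 counts or fewer in every library.

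Chrna1, the alpha subunit of the muscle acetylcholine receptor (ENSMUSG00000027107, chromosome 2, 73563215 to 73580338), had 410.1, 15.7, 206 and 89.7 CPM in vehicle tumours. It had 41.8, 10.2, 82.3 and 189 CPM in regressing and 11.98, 162, 107 and 143 CPM in terminal combination tumours. Chrng, the gamma subunit of the fetal receptor, had 64.1, 0, 60.7 and 18.4 CPM in vehicle, 0.446, 0.0581, 8.30 and 16.5 CPM in regressing and 0.102, 0.238, 24.3 and 10.4 CPM in terminal combination tumours. As levels, both overlapped between groups, with differences between regressing and vehicle of -1.16 (SE 1.01) and -2.51 (SE 1.79).

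Since more muscle in a sample raises all of these genes, 4 of them were set against the mean CPM per kb of 5 adult genes, Acta1, Ckm, Ttn, Neb and Ryr1, a mean that Acta1 and Ckm dominate. Chrna1 stood at 16.6%, 23.6%, 29.8% and 11.4% of it in vehicle, 0.475%, 2.43%, 3.71% and 4.235% in regressing and 2.43%, 2.59%, 4.32% and 7.16% in terminal combination tumours. Every vehicle tumour was above all 8 treated tumours, vehicle tumour 2 included. That tumour had only 15.7 CPM of Chrna1, over an adult mean of 15.2 CPM per kb, the lowest of all tumours. Regressing tumour 2 and terminal combination tumour 1 had 10.2 and 11.98 CPM of Chrna1, over adult means of 95.4 and 112 CPM per kb. Whether Chrna1 followed muscle in vehicle tumour 2 was not tested. With Ckm alone as the reference, vehicle and treated tumours were separate too (17.6% to 547% against 0.407% to 9.76%). With Ttn alone, vehicle tumour 4 (2523%) was below regressing tumour 3 (2754%).

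Myog stood at 39.1%, 1.26%, 28.1% and 58.2% of the adult mean in vehicle, 0.0637% to 1.42% in regressing and 0.733%, 0.632%, 8.66% and 8.99% in terminal combination tumours. Myh3 stood at 32.2%, 0%, 24.3% and 29.8% in vehicle, 0.0110%, 0.101%, 1.49% and 0.0778% in regressing and 0.0678%, 0.000690%, 9.29% and 2.90% in terminal combination tumours. For both, vehicle tumours 1, 3 and 4 were above all treated tumours and vehicle tumour 2 was not. Myh8 was at 1.09% to 4.33% in vehicle tumours 1, 3 and 4, 0.0213% to 0.5545% in regressing and 0.00639% to 4.84% in terminal combination tumours.

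Mstn, myostatin, which restrains muscle growth, had 0.898, 0, 0 and 0 CPM in vehicle, 5.16, 3.66, 10.4 and 2.47 CPM in regressing and 0.717, 5.42, 0.440 and 1.31 CPM in terminal combination tumours. Vehicle and regressing tumours did not overlap, on 21 counts in the vehicle group and 32 to 234 in each regressing library, so Mstn passed the filter only through the treated tumours (difference 4.44, SE 1.32, edgeR adjusted p = 0.254). Myf6, the myogenic factor of adult fibres, was at 2.98, and Ankrd23, a stretch-responsive protein of the sarcomere, at 3.34. Of the 50-base stretches of Ankrd23, 75.0% also occur in transcripts of other genes, nearly all of these in Gm42417 (74.8%), so its level is uncertain.

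All 9 structural genes were higher on average in regressing than in vehicle tumours, with a median log2 difference of 1.72. Acta1, skeletal alpha-actin, had 3964, 83.4, 1187 and 1255 CPM in vehicle, 11700, 504, 3318 and 5922 CPM in regressing and 679.8, 8441, 3930 and 2788 CPM in terminal combination tumours. Vehicle tumour 1 lay within the range of the regressing group, and the difference was 1.72 (SE 1.07, edgeR adjusted p = 0.519). Ckm had the largest difference of the 9, 3.66 (SE 1.21, edgeR adjusted p = 0.277), and Actn2, a Z-disc actinin, the smallest, 1.07. Between them lay Mb, the oxygen store myoglobin (3.63), Ryr1, the calcium release channel (2.49), Neb, the thin-filament ruler nebulin (1.84), the tropomyosins Tpm1 (1.55) and Tpm2 (1.12), and Ttn, the spring protein titin (1.21). Tpm1 stood at 1240 CPM in vehicle tumour 2, where Ckm had 59.5 CPM, so its level did not follow muscle there.

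**Figure D5:**
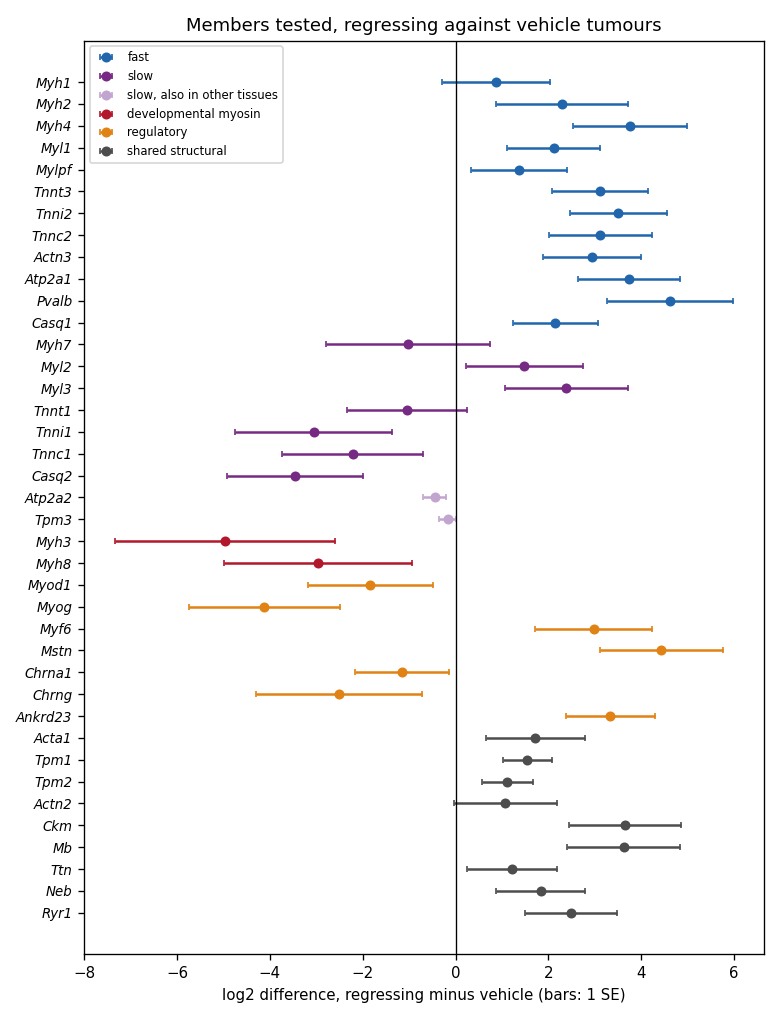
Log2 difference of regressing minus vehicle tumours for the 39 genes tested (points, coloured by class; bars 1 SE). Fast and structural genes lie to the right of 0, developmental myosins and Myog to the left, and slow genes on both sides.

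The first comparison, regressing against vehicle, asks how muscle transcripts differ between shrinking and untreated tumours. Of the 39 genes tested, 26 were higher (66.7%, beside 48.5% of all genes) and 13 lower (33.3%, beside 51.5%) on average, with a median log2 difference of 1.55, beside -0.017 over all genes tested. EdgeR called 0 of the 39 and 0% of all genes after adjustment, with adjusted p from 0.254 to 0.83 over the 39. At an unadjusted p under 0.05, 15 genes were higher (38.5%) beside 6.72% of all genes, and 2 were lower, Casq2 and Myog (5.13%), beside 6.03%.

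DESeq2, which calls 2.2% of all genes higher and 0.888% lower here, called 11 of the 39 higher and 0 lower. They were Myh4, Tnnt3, Tnni2, Tnnc2, Actn3, Atp2a1, Pvalb, Mstn, Ankrd23, Ckm and Mb, with adjusted p from 0.0022 to 0.0409. Regressing tumours lay wholly above vehicle tumours for 4 genes (10.3%), Atp2a1, Pvalb, Mstn and Tpm1, beside 3.5% of all genes, and wholly below for 0, beside 4.13%. The counts of 15, 11 and 4 all include Mstn, which the filter kept only through the treated tumours, which favoured higher values there. Nothing is read from its place in them. Tpm1 lay apart by only 1354 against 1260 CPM, and its level did not follow muscle in vehicle tumour 2.

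The edgeR count of 15 was 9 without regressing tumour 1. The count of 2 became 0 without vehicle tumour 1 or regressing tumour 1 or 2, 1 without regressing tumour 4, 5 without vehicle tumour 2 and 6 without regressing tumour 3. Among the libraries whose titles lack FFT, the differences were 4.67 for Myh4, 3.80 for Ckm, 3.69 for Atp2a1, -4.02 for Myh3 and -3.48 for Myog.

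The second comparison, terminal combination against vehicle, contrasts tumours that share the harvest label Terminal, though no ages are given. On average 28 genes were higher (71.8%, beside 50.4% of all genes) and 11 lower (28.2%, beside 49.6%), 11 of 12 fast and 9 of 9 structural genes among the higher ones, with a median of 1.14 beside 0.002 over all genes. EdgeR called 0, beside 0% of all genes, and DESeq2 0, beside 0.0575% higher and 0.0319% lower. At an unadjusted p under 0.05, 10 were higher (25.6%) beside 3.35%, and 0 were lower beside 2.59%. Mstn, kept by the filter only through the treated tumours, is 1 of the 10, and nothing is read from its place there either. No gene separated the groups, beside 1.21% of all genes higher and 1.3% lower.

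Myh4 differed by 3.15, Pvalb by 3.11, Ckm by 2.90, Atp2a1 by 2.81 and Tnni2 by 2.62 (edgeR adjusted p = 0.819 for each). Tnni1 differed by -1.52, Myh3 by -2.05, Myog by -1.89 and Chrna1 by -0.77, the last at 0.04 without vehicle tumour 1. The count of 10 was 0 without vehicle tumour 2 or terminal combination tumour 2, 3 without vehicle tumour 3, 2 without vehicle tumour 4, and 6 without terminal combination tumour 4 or with the FFT ending as a covariate. The count of 0 lower genes was 1 without vehicle tumour 2.

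The third comparison, terminal combination against regressing, contrasts the treated groups. All 12 fast and 9 structural genes were lower on average in terminal combination tumours, 6 of 7 slow genes and both developmental myosins were higher. In all, 14 of the 39 were higher (35.9%, beside 50.8% of all genes) and 25 lower (64.1%, beside 49.2%), with a median of -0.44 beside 0.008 over all genes. EdgeR called 0, beside 0% of all genes, and at an unadjusted p under 0.05 it gave 0 higher and 0 lower, beside 4.12% and 2.9%. DESeq2 called 0, beside 0.153% higher and 0.173% lower, and no gene separated the groups, beside 2.4% and 1.51%.

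Myh3 differed by 2.92 and Myog by 2.23, both highest in terminal combination tumours 3 and 4 within their group. Tnni1 differed by 1.54, and by -0.51 without terminal combination tumour 3. Myh4 differed by -0.62 and Tnni2 by -0.89, but by 0.52 and 0.14 among the libraries lacking FFT, and Myh4 by 0.18 without regressing tumour 1. EdgeR adjusted p over the 39 ran from 0.708 to 0.994. The comparisons share their groups, so they are not independent.

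Other muscle genes were read from lists of the wider programme. Of 24 further sarcomere and triad genes, 21 were higher and 3 lower on average in regressing than in vehicle tumours, 8 of the higher ones at an unadjusted p under 0.05, beside 48.5% of all genes higher and 6.72% higher at that p. The median log2 difference was 1.80, with Tcap, which caps titin at the Z disc, at 568 ± 500.3 (SD, n = 4) against 24.7 ± 22.4 CPM, and the Z-disc proteins Myoz1 at 302.9 ± 313 against 15.7 ± 17.7 and Myot at 145 ± 132 against 13.9 ± 12.1 CPM. All 12 genes of muscle energy metabolism were higher, each at an unadjusted p under 0.05, beside the same 48.5% and 6.72% of all genes, with a median of 2.92. They include Phka1, a subunit of phosphorylase kinase, at 132 ± 110.5 (SD, n = 4) against 20.3 ± 8.77 CPM, Pygm, muscle glycogen phosphorylase, at 956 ± 1033 against 74.5 ± 80.4, and Ckmt2, mitochondrial creatine kinase, at 61.4 ± 55.6 against 2.88 ± 2.87 CPM.

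Of 10 tested genes of satellite cells and myoblast fusion, 7 were lower on average in regressing tumours, beside 51.5% of all genes, with a median of -1.34. Six4, a homeobox factor of myogenesis, was at 14.7 ± 2.57 (SD, n = 4) against 29.7 ± 8.24 CPM, Megf10, a satellite cell receptor, at 2.92 ± 3.74 against 38.2 ± 37.8, and Mymx, the fusion peptide, at 1.11 ± 1.70 against 15.3 ± 15.4 CPM. Six4 and Megf10 alone were at an unadjusted p under 0.05, beside 6.03% of all genes lower at that p. Both were highest in vehicle tumour 2, at 41.9 and 90.1 CPM, where Mymx was 0 and most muscle genes were lowest. They therefore did not follow muscle in that tumour. Genes of the neuromuscular junction and denervation were lower in 7 of 11, beside 51.5% of all genes, with a median of -0.34. At an unadjusted p under 0.05, 1 gene was lower, beside 6.03% of all genes. That gene, Ncam1, a cell adhesion molecule of immature and denervated fibres, had a level of 36.6 ± 11.2 (SD, n = 4) against 120 ± 75.4 CPM. Even muscle-poor vehicle tumour 2 had 52.7 CPM of Ncam1, above every regressing tumour (at most 51.8 CPM).

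Muscle wasting genes were higher in regressing than in vehicle tumours in 6 of 9, beside 48.5% of all genes, with a median of 0.32. At an unadjusted p under 0.05, 2 were higher, Klf15 and Fbxo32, and 1 lower, Fbxo30, beside 6.72% and 6.03% of all genes. In terminal combination against vehicle tumours all 9 were higher, beside 50.4%, and 1 was at that p, beside 3.35%. The ubiquitin ligase Fbxo32 stood at 120 ± 119 (SD, n = 4) in regressing against 35.7 ± 6.25 CPM in vehicle tumours. The factor Klf15 stood at 7.11 ± 5.88 against 1.29 ± 1.06 CPM, and Fbxo30 at 19.4 ± 2.82 against 25.1 ± 2.97 CPM. EdgeR called 0 genes of these lists after adjustment in any of the 3 comparisons.

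Markers of some other tissues also differed on average between these groups. All 8 adipocyte markers were higher on average in regressing than in vehicle tumours, 7 at an unadjusted p under 0.05, beside 48.5% and 6.72% of all genes. They summed to 23.9 to 134 CPM in vehicle, 194 to 2032 in regressing and 93.7 to 556 in terminal combination tumours. Much of these sums was Car3, an enzyme that muscle fibres also make in quantity, at 5.72 to 89.0, 94.2 to 1688 and 62.55 to 414 CPM in the 3 groups. Adipoq, the fat cell hormone, had at most 2.91 CPM in vehicle and 13.2 to 37.8 in regressing tumours, Plin1 was at 0 in vehicle tumour 3 and Lep at 0 in vehicle tumours 2 to 4. Lep and Plin1, so low in vehicle tumours, passed the filter mainly through the treated ones, which favoured higher values there. Nothing is therefore read from the counts of 8 and 7. The 5 tested red blood cell markers were higher too, all 5 at an unadjusted p under 0.05, beside 48.5% and 6.72% of all genes. All 5 were also higher at that p in terminal combination than in vehicle tumours, beside 50.4% and 3.35%. The 6 listed markers summed to 60.9 to 373, 86.4 to 2134 and 382 to 1034 CPM in the 3 groups. Terminal combination sums thus lay narrowly above all vehicle sums. Tendon markers were higher in 3 of 5, near the 48.5% of all genes, with 1 at an unadjusted p under 0.05. Their sums overlapped, at 488 to 1578, 971 to 4188 and 163.5 to 1486 CPM. Smooth muscle (3 of 6 higher), endothelial (2 of 5), macrophage (3 of 5) and fibroblast (3 of 5) markers were also near that share. The part of these tissues in the muscle differences was not tested.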

How the data were processed

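RNA was measured by sequencing TruSeq stranded mRNA libraries of 12 tumours, per the labels' protocols. The deposited values are counts per Ensembl gene, 1 whole number per gene and library. Builds mm10 and GRCm38.p6 and the tools HISAT2 2.2.1, DESeq2 1.24.0 and Salmon are listed in the submitters' processing notes, without roles. The counting tool, strand setting and annotation release are not given in the sources used here, so genes that overlap or share sequence may share reads.

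Symbols, positions and exon lengths came from GENCODE M21 (GRCm38), which held 54495 of 54532 identifiers. Low genes were removed with filterByExpr at a minimum count of 10 and a minimum total of 15. Counts were scaled by TMM and tested with the edgeR 4.0.16 quasi-likelihood model over all 12 libraries, with Benjamini-Hochberg adjustment over all 15650 genes and a threshold of 0.05, in R 4.3.3. DESeq2 1.42.0 was an alternative. CPM use the TMM-adjusted library size, and levels of different genes were compared only per kb of exon union. Sums over genes had 0.01 CPM per kb added before the log. Python 3.11.15, pandas 2.3.3 and matplotlib 3.10.9 were used, and the count tests were tested on simulated data.

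Genes, lists and tests were chosen with earlier results of these data known, so no count over a list is independent evidence. Values in every tumour are given for the genes that carry the fibre-type and regeneration questions, and up to 3 genes of each further list, those with the smallest edgeR p in regressing against vehicle, are named; other genes were named after their values were seen. Alternatives were other scaling, no filter, the FFT title ending as a covariate or left out, other reference genes, and leaving out each tumour.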

Additional observations from a re-analysis of the deposited data

Results flagged for a closer look

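Sample groups of 4 were searched for a tumour that stood apart, over 135 combinations of a group with a gene or a per-tumour measure, on log2(CPM + 0.1) for genes. Pax7 and Mstn in vehicle tumours, under 1 CPM throughout, are among the 135 but were not searched. The gap to the nearest tumour, as a part of the group's whole range, had to exceed Dixon's critical value, which chance passes in about 1 in 20 groups. Of the combinations searched, 5 exceeded it. Vehicle tumour 2 was the tumour apart in 4 of the 5. It had 0 CPM of Myh2 beside 23.5 to 60.9 in the other vehicle tumours, 0 CPM of Myh7 beside 37.9 to 125, and 0 CPM of Myh3 beside 232 to 1098. Its log2 ratio of Myh3 to the mean of the 5 adult muscle genes was -10.57 beside -2.04 to -1.64, a value set by the amount added before the log because its count was 0. Terminal combination tumour 1 had 11.98 CPM of Chrna1 beside 107 to 162 in the other terminal combination tumours.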

How the results depend on the processing

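No paired analysis was possible because the labels give the groups no shared replicate numbers; tumours are numbered in the order of their records. Over the alternatives, 633 of 646 log2 differences of single genes kept their direction and side of the threshold, and 634 of 663 counts and per-tumour values stayed within the limits set. With DESeq2, 344 genes were called higher and 139 lower in regressing than in vehicle tumours, 11 of the muscle genes higher, and 4 were lower at an unadjusted p under 0.05. DESeq2 also called 9 genes higher and 5 lower in terminal combination than in vehicle tumours, and 24 higher and 27 lower than in regressing tumours; the cause was not tested. Among libraries lacking FFT, 1 muscle gene was lower in regressing tumours at an unadjusted p under 0.05. With FFT as a covariate, 6 muscle genes were higher in terminal combination than in vehicle tumours and 1 was higher than in regressing tumours. With Ckm alone as the adult reference, the log2 difference of relative Chrna1 was -4.95 in place of -3.21 for regressing and -3.7 in place of -2.35 for terminal combination against vehicle. Leaving out each tumour in turn gave 9 to 20 higher and 0 to 6 lower muscle genes at an unadjusted p under 0.05 in regressing against vehicle, 0 to 14 and 0 to 1 in terminal combination against vehicle, and 0 to 1 higher between the treated groups. It gave 0 to 1 genes called lower between the treated groups, that call arising without terminal combination tumour 4. The sign changed for Myh1 in regressing against vehicle (-0.3 to 1.59 with a tumour left out), Chrna1 in terminal combination against vehicle (-1.15 to 0.04), and, between the treated groups, Myh4 (-1.63 to 0.18; 0.52 among libraries lacking FFT), Tnni2 (0.14 among libraries lacking FFT) and Tnni1 (-0.51 to 3.29). Differences of regressing from vehicle that kept their sign but moved by over 1.5 times with a tumour left out include Acta1 (1.0 to 2.68), Myh2 (0.8 to 2.91), Myh7 (-2.47 to -0.54), Tnnt1 (-1.56 to -0.56), Tnni1 (-4.81 to -1.9), Myh3 (-7.56 to -3.79), Chrna1 (-2.01 to -0.34) and Mstn (3.92 to 9.59). The log2 fast to slow difference ran from 3.28 to 5.2, 1.67 to 4.59 and -2.52 to 0.41 in the 3 comparisons with a tumour left out. Slow and developmental genes of vehicle tumour 2 rest on few counts, which limits its ratios.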

Other observations

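Genes known from the heart that developing skeletal muscle also uses stood highest in the tumours with the most Myh3, and were named after their values were seen. Actc1, cardiac alpha-actin, had 646 CPM in vehicle tumour 1, 0 in vehicle tumour 2, 43.9 in vehicle tumour 3 and 300 in vehicle tumour 4. It had 9.75, 1.34, 34.9 and 5.94 CPM in regressing tumours and 1.89, 5.24, 243.5 and 102 CPM in terminal combination tumours. Myl4, the atrial and embryonic myosin light chain, had 763, 4.002, 203 and 147 CPM in vehicle, 15.9, 7.78, 115 and 21.6 CPM in regressing and 5.17, 12.9, 428 and 58.8 CPM in terminal combination tumours. Tnnt2, cardiac and embryonic troponin T, had 209 CPM in vehicle tumour 1 and 141 in terminal combination tumour 3, and 0.205 CPM in terminal combination tumour 1. The 3 groups overlapped for each of these genes.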
